A study of Mus musculus with 15 samples.

Results

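The small heat shock protein genes Hspb1, Hspb6, Hspb7, Hspb8 and Cryab and the co-chaperone gene Bag3 were followed through HSF1 ChIP-seq peak lists of mouse brown adipose tissue, the fat depot that makes heat in the cold. The 6 genes were taken by name from 21887 protein-coding genes of GRCm38 (mm10), and a peak belonged to a gene when it overlapped the gene span plus 5 kb on each side. Of 54878 peaks in 10 lists, 55 met this rule. The labels set HSF1 binding in acute cold beside that at room temperature, and binding in TXNIP KO mice beside that in wild type. TXNIP is an arrestin that binds thioredoxin and restrains glucose uptake. Each of 5 groups had 2 ChIP libraries from brown fat: wild type (WT) at room temperature, a first WT pair after 40 min of cold, WT after 4 h of cold, mice labelled TXNIP KO after 40 min of cold, and a second WT pair after 40 min of cold. The sources used here do not state strain, age, sex, how the knockout was made, whether animals were pooled, or whether the 2 libraries of a group came from separate animals. All ChIP libraries used the same HSF1 antibody (Cell Signaling 4356) on tissue fixed with 2 mM DSG for 25 min and then 0.8% formaldehyde for 12 min. The lists do not measure TXNIP, so the genotype is as labelled.

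HSF1 is the transcription factor that switches on chaperone genes when proteins misfold. It binds as a trimer to heat shock elements, which are runs of GAA units in alternating directions with a pair of bases between units. Small heat shock proteins are ATP-independent chaperones that hold unfolding proteins and protect the cytoskeleton, and HSPB8 works in a complex with BAG3, which hands clients to HSP70 and to selective autophagy. Hspb1, Cryab and Bag3 are textbook HSF1 targets in heat-shocked cells, while Hspb6 and Hspb7 are best known from muscle and heart.

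The promoter sequences are shown because the same 8 letters, GAAGTTTC, lay within 33 bp of the HSF1 summits of 3 of these genes and also stood in the promoter of a gene with no promoter peak. The sequences are from RefSeq (GRCm38.p6), whose promoter table covers 250 bases before to 50 bases after a gene start, and 5 of the 6 genes have an entry, with Cryab the exception. Capitals mark matches to 2 heat shock units, GAANNTTC or TTCNNGAA, which read the same on both strands. The first line is from Hspb1 (chr5:135887791-135887820, plus strand), the second from Bag3 (chr7:128523603-128523632, plus strand), the third from Hspb8 (chr5:116422844-116422873, minus strand) and the fourth from the second annotated start of Hspb6 (chr7:30553170-30553199, plus strand).
Hspb1: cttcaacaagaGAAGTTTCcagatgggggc
Bag3: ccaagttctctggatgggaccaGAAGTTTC
Hspb8: agaagccaggaGAAGTTTCtaggctcgcga
Hspb6: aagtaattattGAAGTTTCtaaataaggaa

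Hspb1 carried a second match, GAACCTTC, downstream of the first, and it is shown with the 250 bases before the gene (chr5:135887669-135887918, plus strand) because the HSF1 summits lay on this second match or within 7 bp of it.
Hspb1 upstream: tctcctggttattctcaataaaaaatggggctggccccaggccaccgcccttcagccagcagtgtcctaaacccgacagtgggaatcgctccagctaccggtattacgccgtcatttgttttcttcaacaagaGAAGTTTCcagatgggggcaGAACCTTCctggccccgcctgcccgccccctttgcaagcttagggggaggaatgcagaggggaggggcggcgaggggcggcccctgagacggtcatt

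Measured from the first base of the gene, the matches began at -117 and -97 bp in Hspb1, at 42 bp in Bag3, at 2 bp in Hspb8 and at -120 bp from the second start of Hspb6. The first window of Hspb6 and that of Hspb7 held none of these matches. A 2-unit match occurred in 15.1% of all 32851 promoter windows of the table, and GAAGTTTC, a string singled out after the windows were read, in 1.21%. A perfect run of 3 units is a 2-unit match extended by NNGAA or NNTTC, searched on both strands. None of the 5 genes with a window held one, while 0.603% of all windows did. The Bag3 match ends at the last base of its window, so an extension beyond it could not be read. Cryab has no window and was not searched. Of the 124 windows that held a summit of room temperature replicate 1, 62.9% had a 2-unit match and 6.45% had GAAGTTTC. A perfect run of 3 units stood in 20.2% of these 124 windows. These matches are letters in a window and were not tested as binding sites.

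HSF1 was bound at 3 of the 6 genes at room temperature, namely Hspb1, Hspb8 and Bag3, when bound means a peak of both libraries in the window. The same 3 were bound in the first 40 min WT pair, and Hspb1 alone at 4 h. In TXNIP KO tissue and in the second WT pair, Hspb1, Hspb8, Cryab and Bag3 were bound. Over all protein-coding genes the same rule called 2.95% at room temperature, 4.97% in the first 40 min WT pair, 0.466% at 4 h, 21.0% in TXNIP KO and 26.6% in the second WT pair. Lists ranged from 123 to 14583 peaks, and groups with longer lists had more genes of any kind called. With each list held to its 123 strongest peaks, Hspb1 and Bag3 were bound in every group but 4 h, where Hspb1 alone was, and no other member was bound in any group. The share of all genes bound at that length was 0.53% at room temperature, 0.512% for the first 40 min WT pair, 0.379% at 4 h, 0.557% in TXNIP KO and 0.553% in the second WT pair. Single libraries called Hspb1 in 10 of 10 lists, Bag3 in 9, Hspb8 in 8, Cryab in 6, Hspb6 in 1 and Hspb7 in 0. Peaks of all lists merged into 18176 regions, and 94 others were called in the same libraries as the Hspb1 region. For Bag3 176 others were, for Hspb8 474, for Cryab 79 and for Hspb6 2669. The share of all genes called in as many lists was not counted.

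Peak strength is given as the fold enrichment at the summit over local background, a value per peak from the authors' peak caller. Read depth is unknown, since the lists hold no counts. The input behind each list is not stated, and 1 of the 5 inputs is labelled room temperature in its title but 40 min of cold as its treatment. The 2 WT pairs at 40 min carry the same condition labels, yet at 1461 regions called in all 4 of their libraries the fold was a median 3.90 times higher in the second pair, and higher without overlap in 99.7%. Where folds of 2 groups do not overlap, the share of shared regions of which this is also true is therefore given. Ranks within full lists describe each list alone, since lists differ in length, and ranks are compared between groups only over shared regions. The called members followed 1 order by fold, Hspb1, Bag3, Hspb8 and Cryab, in each of the 9 libraries with more than 1 of these 4 genes called.

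**Figure D1:**
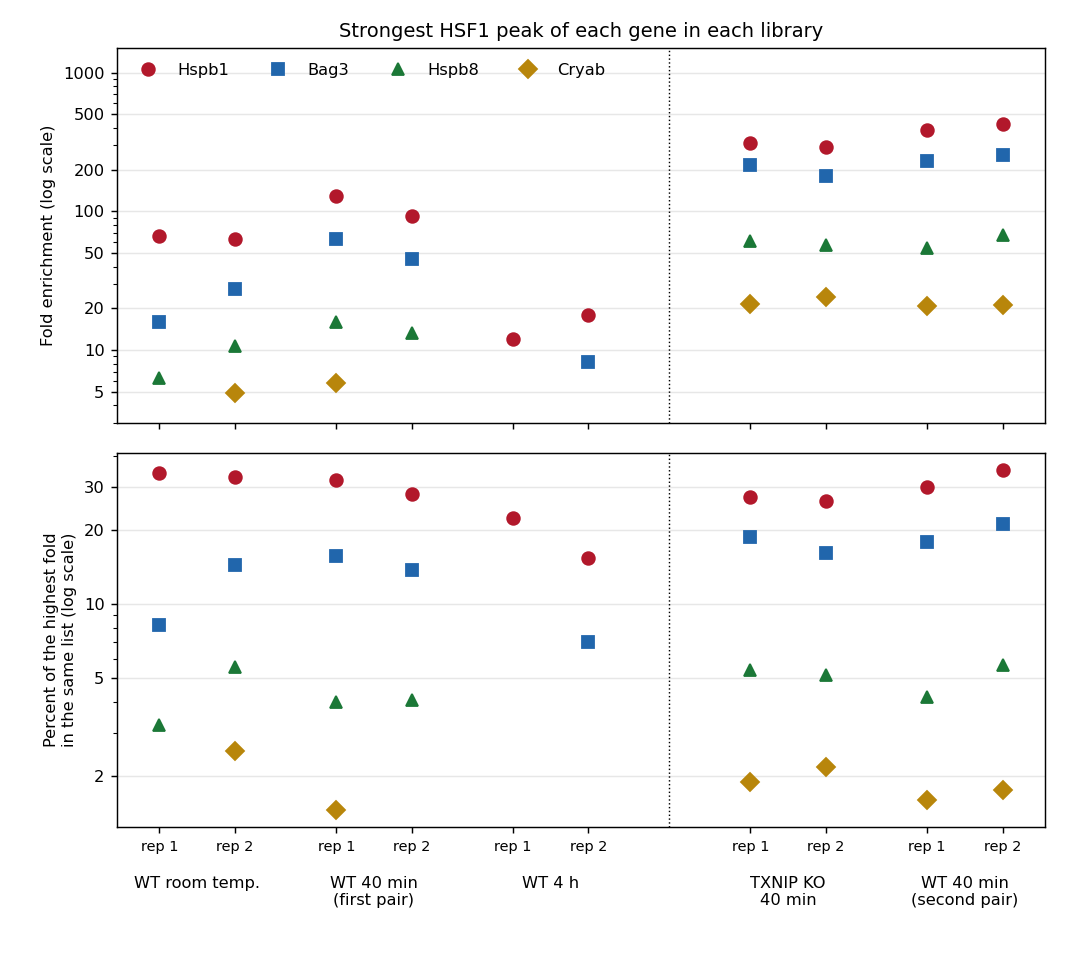
Strongest HSF1 peak of each gene in each library, as fold enrichment (upper panel, log scale) and as a percent of the highest fold in the same list (lower panel, log scale). Points are single libraries of 5 groups, and a missing point means no peak. Hspb1 lies above Bag3, Bag3 above Hspb8 and Hspb8 above Cryab wherever they were called, and at 4 h only Hspb1 has a point in both libraries.

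Hspb1 encodes HSP25 (HSP27 in humans), a chaperone of actin filaments, and it lies at chromosome 5, 135887919 to 135889563, on the plus strand with no other annotated gene in its window. Its fold was 66.3 and 63.3 at room temperature, 129 and 91.8 for the first 40 min WT pair, and 12.0 and 17.9 at 4 h. In TXNIP KO libraries it was 313 and 291, against 387 and 426 in the second WT pair. Within the time course the 40 min values were the highest and the 4 h values the lowest, with no overlap between groups. Folds were higher at 40 min than at room temperature without overlap in 79.8% of shared regions, and lower at 4 h than at room temperature in 67.3%. TXNIP KO values lay below those of the second WT pair without overlap, as in 39.1% of shared regions.

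Within its own list Hspb1 ranked 15 of 919 and 15 of 1269 peaks at room temperature and 13 of 2287 and 14 of 1670 in the first 40 min WT pair. At 4 h it ranked 21 of 123 and 30 of 351. In the TXNIP KO lists it ranked 15 of 10399 and 16 of 10633, and in those of the second WT pair 14 of 12644 and 14 of 14583. As a share of the strongest peak of the same list, its fold was 34.1% and 32.8% at room temperature, 32.1% and 28.0% for the first 40 min WT pair and 22.3% and 15.3% at 4 h. TXNIP KO libraries gave 27.2% and 26.2%, and the second WT pair 29.9% and 35.2%. The 4 h libraries gave the lowest shares of the 10.

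The summit of Hspb1 lay between 135887821 and 135887836 in 10 libraries, a range of 15 bp, at 98 to 83 bp before the gene start. It fell on or within 7 bp of GAACCTTC in each library and 12 to 27 bp from GAAGTTTC. The called width varied more, with 961 and 1018 bp at room temperature, 1947 and 1883 bp for the first 40 min WT pair, and 520 and 588 bp at 4 h. It was 3967 and 3039 bp in TXNIP KO and 2521 and 3876 bp in the second WT pair. A further peak was called in 3 libraries, each at another position and with folds of 3.11 to 5.18.

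Bag3 encodes the co-chaperone that links HSP70 to small heat shock proteins and to autophagy, and it lies at chromosome 7, 128523583 to 128546981, on the plus strand. Its strongest peak had a fold of 16.0 and 27.7 at room temperature. It had 62.8 and 45.1 in the first 40 min WT pair. At 4 h replicate 2 had a peak of 8.21 and replicate 1 had none. TXNIP KO libraries gave 214 and 179, against 231 and 255 in the second WT pair. Both 40 min values exceeded both room temperature values, as in 79.8% of shared regions, and both TXNIP KO values lay below those of the second WT pair, as in 39.1%.

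Within each full list Bag3 ranked 106 of 919 and 58 of 1269 at room temperature, 40 of 2287 and 49 of 1670 in the first 40 min WT pair, and 161 of 351 in 4 h replicate 2. Its fold was 8.25% and 14.4% of the strongest peak at room temperature, 15.7% and 13.7% for the first 40 min WT pair and 7.01% in 4 h replicate 2, so on this measure room temperature replicate 2 lay between the 40 min values. It was 18.7% and 16.1% in TXNIP KO and 17.8% and 21.1% in the second WT pair. The ratio of the Hspb1 fold to the Bag3 fold was 4.13 and 2.28 at room temperature, 2.05 and 2.04 for the first 40 min WT pair and 2.18 in 4 h replicate 2. The same ratio was 1.46 and 1.62 in TXNIP KO, against 1.68 and 1.67 in the second WT pair.

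The Bag3 summit lay just inside the gene. Over 9 libraries it fell between 20 and 68 bp after the gene start, and it was on GAAGTTTC or within 22 bp of it in each. The letters that follow this match lie beyond the promoter table. The highest position was in TXNIP KO replicate 1 and the lowest in 4 h replicate 2, which is also the weakest of the 9 peaks.

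Hspb8 encodes HSP22, the small heat shock protein that binds BAG3. It lies on the minus strand of chromosome 5, 116408491 to 116422864, next to the long noncoding RNA gene Gm42009, which lies beyond its start. The peaks at its start reach into Gm42009 and cannot be assigned to 1 of the 2 genes. Its strongest peak had a fold of 6.28 and 10.7 at room temperature. It was 15.9 and 13.4 in the first 40 min WT pair, and no peak was called at 4 h. TXNIP KO libraries gave 61.6 and 57.1, against 54.4 and 68.1 in the second WT pair. The 40 min folds were above those of room temperature without overlap, as in 79.8% of shared regions, while the TXNIP KO values lay inside the range of the second WT pair.

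Within its own list Hspb8 ranked 564 of 919 and 285 of 1269 at room temperature and 343 of 2287 and 373 of 1670 in the first 40 min WT pair. In the TXNIP KO lists it ranked 241 of 10399 and 260 of 10633 (2.32% and 2.45% of the way down), and in those of the second WT pair 394 of 12644 and 298 of 14583 (3.12% and 2.04%). Its fold made up 3.23% to 5.63% of the strongest peak of the list over 8 libraries. The summit lay from 31 bp before to 18 bp after the gene start, and 0 to 33 bp from GAAGTTTC. Both room temperature summits were inside the gene, at 17 and 18 bp, while those of the first 40 min WT pair were at -19 and -23 bp. Those of the second WT pair were at -20 and -21 bp. The TXNIP KO summits were at 4 and -31 bp, so replicates of 1 group also lay on both sides of the gene start.

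**Figure D2:**
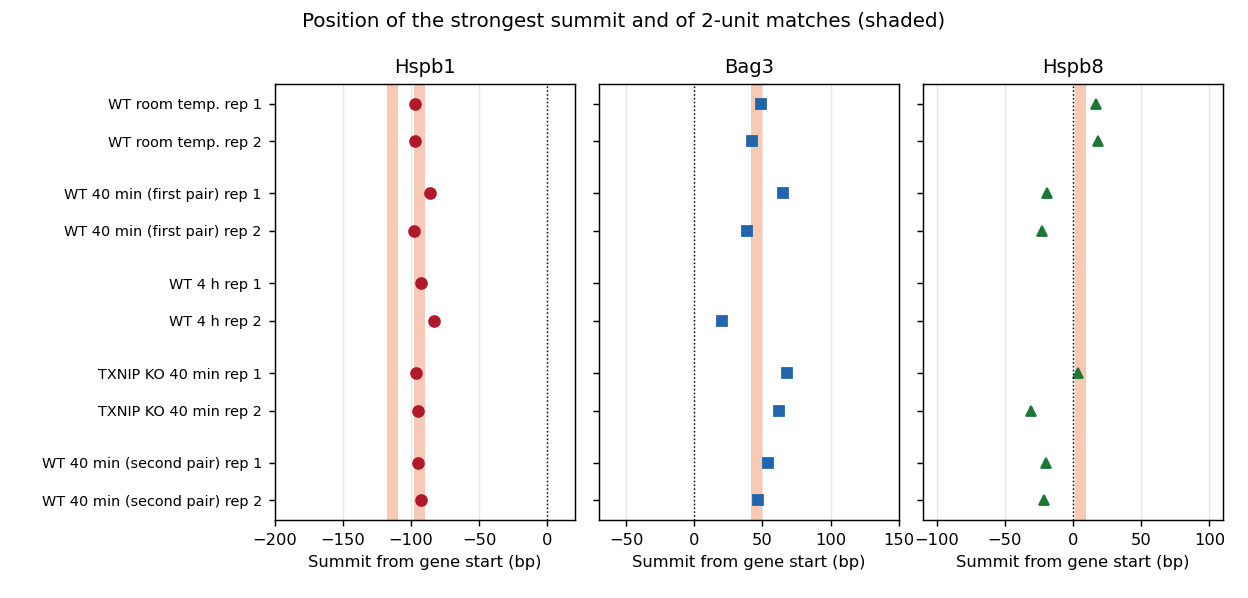
Position of the strongest HSF1 summit of Hspb1, Bag3 and Hspb8 relative to the gene start (dotted line, bp, read in the direction of the gene) in each library, with 2-unit matches shaded. Summits of Hspb1 span 15 bp over 10 libraries and lie on or within 7 bp of the second match, while those of Bag3 and Hspb8 lie within 22 and 33 bp of GAAGTTTC.

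Cryab encodes alphaB-crystallin, a small heat shock protein of lens and muscle that chaperones desmin filaments. Its span at chromosome 9, 50745951 to 50756636, includes the span of Hspb2, a neighbouring small heat shock protein gene that is known to share its upstream region with Cryab in the opposite direction. A peak was called in replicate 2 at room temperature (fold 4.88) and in replicate 1 of the first 40 min WT pair (fold 5.80), and in neither 4 h library. TXNIP KO libraries gave 21.6 and 24.1, against 20.7 and 21.2 in the second WT pair. Both TXNIP KO values lay above those of the second WT pair, as in 10.6% of shared regions, with a smaller gap between the groups than between the TXNIP KO replicates. A further peak with a fold of 5.60 was called in replicate 1 of the second WT pair alone.

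The Cryab summits lay in the stretch beyond the upper end of Hspb2, at 480 to 557 bp from that end, over 6 libraries. This is inside the Cryab span, 6883 to 6960 bp from its lower end. Cryab had no strand in the sources used, so the distance to its start is not given. The summits ranged from 50752834 to 50752911, which is 77 bp and the widest scatter of the 4 genes. Cryab ranked 946 of 1269 in room temperature replicate 2 and 1436 of 2287 in replicate 1 of the first 40 min WT pair. In the TXNIP KO lists Cryab ranked 1129 of 10399 and 940 of 10633 (10.9% and 8.84% of the way down). In those of the second WT pair it ranked 1329 of 12644 and 1421 of 14583 (10.5% and 9.74%). These percents describe lists of different length. Over shared regions its ranks were 1126 and 937 in TXNIP KO, against 1325 and 1415 in the second WT pair. They were higher up in TXNIP KO without overlap, as for 24.0% of those regions. Since this peak lies in the windows of both genes, it also counts for Hspb2.

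Hspb6 and Hspb7 had no HSF1 peak at their promoters in any list. Hspb6 encodes HSP20, a small heat shock protein of muscle, and lies at chromosome 7, 30552535 to 30555443, on the plus strand. The single peak in its window came from replicate 2 of the second WT pair, with a fold of 3.77 and rank 11035 of 14583. That peak (30549905 to 30550283) lay inside the span of the neighbouring gene Proser3, with its summit at -2429 bp from the start of Hspb6. The GAAGTTTC of the second Hspb6 start thus had no peak over it in 10 of 10 lists. Hspb7, the cardiovascular small heat shock protein gene at chromosome 4, 141420779 to 141425310, had no peak within 5 kb in any library.

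Weaker peaks were called inside Bag3 and Hspb8 in TXNIP KO and second WT libraries, and in none of the time course lists. The former lists held 10399 to 14583 peaks, with median folds of 5.15 to 5.99, and those of the time course 123 to 2287 peaks. The share of all regions called in the long lists alone was not counted. Bag3 held 13 such peaks with folds of 3.94 to 9.78. They formed a group 6204 to 6500 bp after the gene start, a group at 7498 to 7598 bp and a stretch from 17426 to 18668 bp, and each was called in all 4 libraries. At the first of these sites the fold was 6.43 and 4.45 in TXNIP KO, against 8.33 and 9.78 in the second WT pair, without overlap. At the second it was 3.94 and 5.02 in TXNIP KO, against 6.77 and 6.0 in the second WT pair, also without overlap. At the third it was 6.02 and 5.53 in TXNIP KO, with summits at 17476 and 17432 bp. Second WT pair replicate 1 had 2 separate peaks there, of 4.78 at 17426 bp and 3.98 at 18642 bp. Replicate 2 of that pair had 1 wide peak of 4.46 with its summit at 18668 bp. The TXNIP KO folds were the higher ones over this stretch, but of the WT summits only that of the 4.78 peak lay near theirs. Over the 7131 regions shared by these 4 libraries, 39.1% had lower folds in TXNIP KO without overlap and 10.6% had higher ones. Hspb8 held a weak site 3204 to 3615 bp after its start, with folds of 3.56 and 2.89 in TXNIP KO and 3.38 and 4.46 in the second WT pair. Whether these sites are exonic or intronic is not given in the gene table used.

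**Figure D3:**
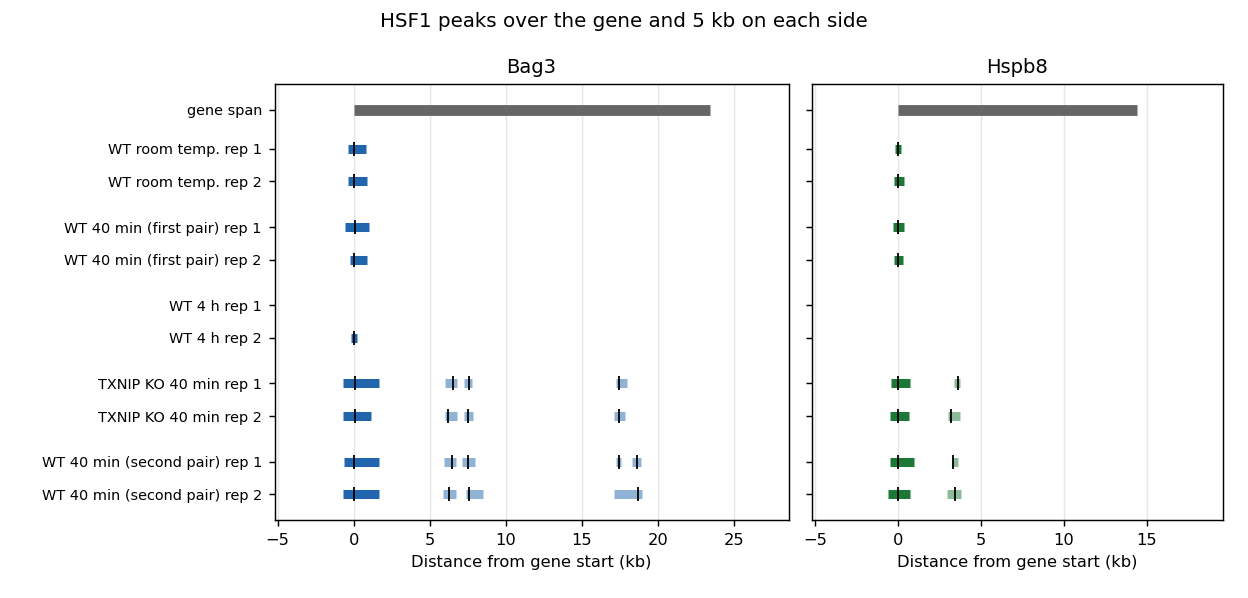
HSF1 peaks over Bag3 and Hspb8, drawn as distance from the gene start (kb) in the direction of the gene, 1 row per library, with summits as black ticks and weaker peaks in pale colour. Each library with a call has its strongest peak at the start of the gene. Peaks inside the genes appear in TXNIP KO and second WT libraries alone, whose lists are the longest.

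The first comparison set 40 min of cold against room temperature. None of the 6 genes was gained or lost in the first 40 min WT pair against room temperature, where gained means called in both libraries of the first named group and in neither of the other. Over all genes 1.1% were gained and 0.0137% lost. At the 756 regions called in all 4 libraries the fold was a median 1.56 times higher at 40 min, where a ratio is that of the geometric means of the 2 libraries. It was higher without overlap in 79.8% of these regions and lower in 1.46%. Hspb1 had a ratio of 1.68 and Hspb8 of 1.78. Bag3 had a ratio of 2.52, above 95.8% of the shared regions, while single pairs of libraries gave 1.63 to 3.92. Between the 2 WT pairs at 40 min, which carry the same condition labels, Bag3 also stood high. Its ratio of second over first pair was 4.56, above 83.2% of 1461 shared regions. That of Hspb8 was 4.17, above 63.7%, and that of Hspb1 3.74, above 40.6%.

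Among those 756 regions, Bag3 ranked 40 and 48 in the first 40 min WT pair, against 105 and 57 at room temperature. Hspb1 ranked 13 and 14 in the first 40 min WT pair, against 15 and 15 at room temperature. Hspb8 ranked 330 and 352 in the first 40 min WT pair, against 541 and 282 at room temperature, so its groups overlapped. Ranks were higher up the order at 40 min without overlap for 25.5% of the shared regions and lower down for 26.2%, so a move of this kind is common. The mean rank of Bag3 differed by -37.0 places (exact permutation test, two-sided, p = 0.333), and by -13.0 places without room temperature replicate 1. With 2 libraries against 2, that p is the smallest the test can give. All 9 rank comparisons here and below gave p = 0.333 or p = 1 by this exact test (0.429 or 1 after Benjamini-Hochberg adjustment), so none passed.

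The second comparison set 4 h of cold against both earlier times. Hspb1 was the only member still bound in both 4 h libraries. Hspb8 was lost against room temperature and against the first 40 min WT pair, and Bag3 was neither lost nor bound, with a peak in replicate 2 alone. Without replicate 1 it counts as bound, making 2 members. No member was gained at 4 h. Over all genes 1.87% were lost and 0.00914% gained against room temperature, and 3.73% were lost and 0.00457% gained against the first 40 min WT pair. Of the 645 genes bound at room temperature, 409 (63.4%) were lost at 4 h, and of the 1087 bound in the first 40 min WT pair, 817 (75.2%) were. Bag3 counted as lost in both comparisons without 4 h replicate 2, which brings the lost members to 2. Without room temperature replicate 1, or without replicate 2 of the first 40 min WT pair, Cryab was the second lost member. With the 4 lists of a comparison held to their 123 strongest peaks, Bag3 and not Hspb8 was the member lost, since Hspb8 then had no peak in either group. At that length 0.174% of all genes were lost against room temperature and 0.155% against the first 40 min WT pair.

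For Hspb1 the fold at 4 h was lower, relative to the other times, than for most regions that were still called. Only regions called in both 4 h libraries enter these shares. Weaker regions that fell as far could be missing from them, so they do not place Hspb1 among all regions. It was 0.226 times that at room temperature, against a median of 0.457 over 98 shared regions, of which 10.2% had a lower ratio. Against the first 40 min WT pair the ratio was 0.135, with a median of 0.345 over 105 shared regions, of which 7.62% had a lower ratio. The 4 h fold was lower without overlap in 67.3% of shared regions and higher in 6.12% against room temperature, and lower in 88.6% and higher in 0.952% against the first 40 min WT pair. Among the 98 shared regions Hspb1 ranked 16 and 30 at 4 h, against 15 and 15 at room temperature. Ranks were further down at 4 h without overlap in 37.8% of these regions and further up in 28.6%. The mean rank moved by 8.0 places, and by 1.0 place without 4 h replicate 2, so the move rests on that library. Among the 105 regions shared with the first 40 min WT pair Hspb1 ranked 16 and 30 at 4 h, against 13 and 14 at 40 min, a move of 9.5 places that became 2.5 without 4 h replicate 2. Of these regions 32.4% ranked further down at 4 h without overlap and 32.4% further up.

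**Figure D4:**
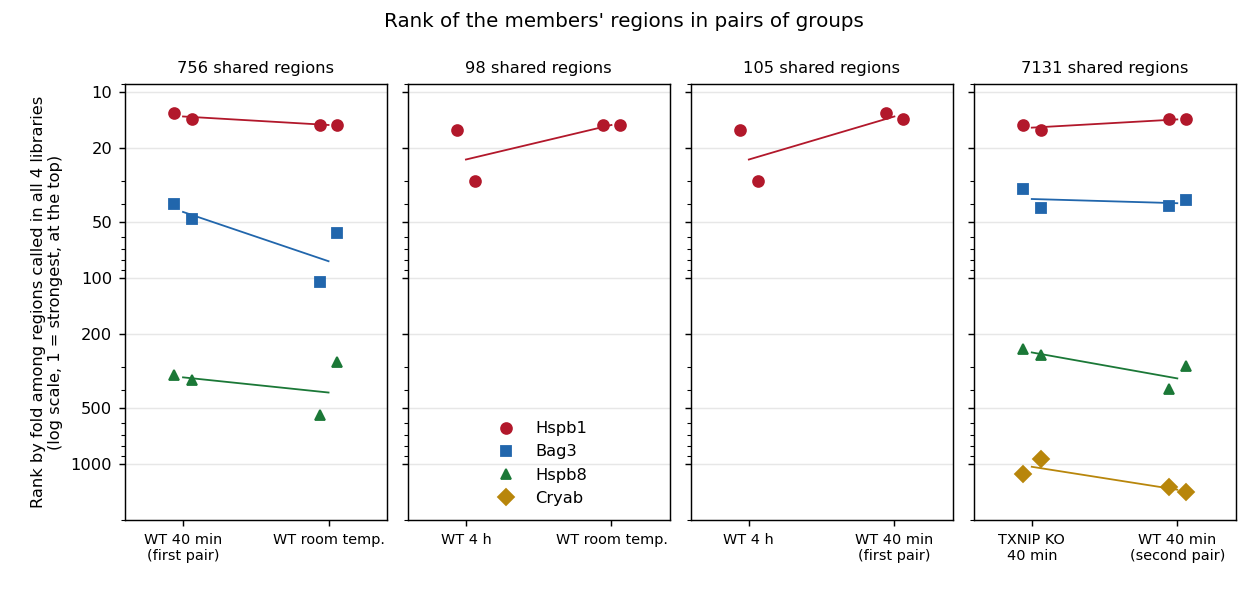
Rank by fold (log scale, 1 is the strongest and lies at the top) of each gene's region among the regions called in all 4 libraries of a comparison. Points are libraries and lines join group means. Bag3 ranks 40 and 48 at 40 min against 105 and 57 at room temperature, while Hspb1 ranks between 13 and 16 except in 4 h replicate 2, where it ranks 30.

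The third comparison set TXNIP KO against wild type, both at 40 min of cold. None of the 6 genes was gained or lost in TXNIP KO against the second WT pair. Over all genes 0.302% were gained and 2.81% lost. At 7131 shared regions the fold was a median 0.892 times that of the second WT pair. The ratio was 0.742 for Hspb1, 0.806 for Bag3, 0.975 for Hspb8 and 1.09 for Cryab. The share of shared regions with a lower ratio was 20.7%, 32.3%, 65.4% and 81.5% for these genes in turn, so none lay at an extreme of all regions.

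Cryab ranked 1126 and 937 in TXNIP KO, against 1325 and 1415 in the second WT pair, and Hspb8 ranked 241 and 260 in TXNIP KO, against 393 and 298 in the second WT pair. Hspb1 ranked 15 and 16 in TXNIP KO, against 14 and 14 in the second WT pair. Bag3 ranked 33 and 42 in TXNIP KO, against 41 and 38 in the second WT pair, with overlap. Ranks were higher up in TXNIP KO without overlap for 24.0% of regions and further down for 21.6%. Which WT pair was prepared with the knockout is not given in the labels. Against the first WT pair the mean folds of Hspb1, Bag3 and Hspb8 were higher in TXNIP KO, as were those of the second WT pair.

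Regions called in exactly the same libraries, with the closest folds, gave the nearest neighbours in pattern. For Hspb1 94 other regions were called in the same 10 libraries, and the closest were at Ubqln1, a ubiquitin-binding shuttle factor, Stip1, the co-chaperone that joins HSP70 to HSP90, and Hspa4l, an HSP110 family gene. Their mean absolute differences of log2 fold over 10 libraries were 0.17, 0.17 and 0.21. For Bag3 the closest of 176 regions in 9 libraries were at Lrrc61 (0.27), over Ahsa1 and Vipas39 (0.32), and over Ears2 and Ubfd1 (0.33). Ahsa1 encodes an activator of the HSP90 ATPase. For Hspb8 they were at Sf1 (0.12), P4ha2 (0.13) and Prkce (0.15), out of 474 regions in 8 libraries. For Cryab they were at Sod1 (0.16), Ankrd39 (0.16) and Ebf3 (0.17), out of 79 regions in 6 libraries. Folds of different regions in 1 list share its library, depth and input.

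Other genes of the pathway were counted by the same rule. That rule called 2.95% of all protein-coding genes at room temperature, 4.97% in the first 40 min WT pair and 0.466% at 4 h. It called 21.0% in TXNIP KO and 26.6% in the second WT pair. All 18 core HSF1 chaperone genes listed were bound in each group except 4 h, where 14 were and Hspa4, Dnajb4, Ahsa1 and Ptges3 were not. Of 5 other small heat shock protein genes, 0 were bound in the 3 groups of the time course, 1 in TXNIP KO (Hspb2) and 2 in the second WT pair (Hspb2 and Cryaa). Hspb3, Hspb9 and Odf1 were bound in no group. Of 5 other BAG family genes, 0 were bound at room temperature, 1 in the first 40 min WT pair (Bag2) and 0 at 4 h. TXNIP KO had 2 (Bag1 and Bag2) and the second WT pair 3 (Bag1, Bag2 and Bag6).

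Among BAG3 partners in chaperone-assisted autophagy, Hspa8, the constitutive HSP70 gene, was bound in every group. Dnajb6, an HSP40 co-chaperone gene, and Synpo2, which encodes a Z-disc partner of BAG3, were bound in TXNIP KO and in both WT pairs at 40 min, and neither was bound at room temperature or at 4 h. Stub1, which encodes the ubiquitin ligase CHIP, was bound in TXNIP KO and in the second WT pair, and in no group of the time course. The share of all genes with these patterns over groups was not counted. Sqstm1, Map1lc3b and Tsc1 were bound in no group. Of 7 filament and Z-disc genes, Actb and Gfap were bound both at room temperature and within the first 40 min WT pair, and 0 at 4 h. In TXNIP KO 3 were (Vim in addition), and in the second WT pair 4 (Vim and Des in addition). Over all genes 2.95% were bound at room temperature, 4.97% in the first 40 min WT pair and 0.466% at 4 h. In TXNIP KO 21.0% were, and in the second WT pair 26.6%.

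HSF1 peaks do not measure expression, so the cell makeup of the tissue could not be checked from markers. Brown adipocyte markers had 2 of 10 bound both at room temperature and within the first 40 min WT pair (Ppargc1a and Prdm16), 0 at 4 h, 6 in TXNIP KO and 7 in the second WT pair. Skeletal muscle markers, of interest since small heat shock proteins abound in muscle, had 0 of 10 bound in TXNIP KO and in the time course, and 1 in the second WT pair (Tnnt3). Endothelial markers had 2 of 5 bound (Pecam1 and Flt1) in every group but 4 h, which had 0, and leukocyte markers 0 of 5 in any group. The shares of all genes were 2.95% at room temperature, 4.97% in the first 40 min WT pair and 0.466% at 4 h. They were 21.0% in TXNIP KO and 26.6% in the second WT pair, and the marker lists are short.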

How the data were processed

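HSF1 ChIP-seq was deposited as 1 peak list per ChIP library, so peaks were called on single libraries; the 5 inputs have no file here. The submitters' processing notes list MACS2 2.2.7.1, deepTools 3.4.3, SAMtools, BWA 0.7.17 and Trim Galore 0.6.0, and the build GRCm38.p6 (mm10). The sources used here state neither filters nor the input of each library. The deposited lists give a linear ratio (fold enrichment at the summit), −log10 p and −log10 q values, an integer score that was not used, and the summit position. Depth is unknown.

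Peaks on chromosomes 1 to 19, X and Y were kept (1 to 8 left out per list), and positions are 1-based. Genes were those of RefSeq GRCm38.p6, and strand came from the promoter table. Regions are peaks merged at 1 bp of overlap, and ranks are by fold. Ranks were compared by two-sided exact permutation tests over libraries with Benjamini-Hochberg adjustment over 9 tests. Python 3.11.15 with pandas 2.3.3 was used, and the steps were tested on simulated data.

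The text names the 6 members, the neighbours in their windows, the 3 regions closest in pattern and the members of fixed lists, of which 1 is not reported here. The members and lists were chosen with earlier results of these data known. No p-value here measures differences between animals.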

Additional observations from a re-analysis of the deposited data

How the results depend on the processing

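Alternatives were a window of 1 kb, the gene span alone, −log10 q of at least 5, summit inside the window, lists of equal length, the other WT pair, ranking by −log10 p, summits within 250 bp, regions shared by all 10 libraries, and leaving out single libraries. Of 35 alternative counts of bound members 32 stayed within 1.5 times the main count. Keeping the 123 strongest peaks of each list left 2 members bound in TXNIP KO and 2 in the second WT pair, against 4 in each with full lists, a change that follows from the shorter lists. At 4 h the count was 1 to 2 without single libraries. Lost members at 4 h numbered 1 to 2 without single libraries against room temperature and against the first 40 min pair, and 2 with the second WT pair as the 40 min group (Hspb8 and Cryab). With lists of equal length the count at 4 h stayed at 1, but the member lost was Bag3 in place of Hspb8. Lost members in TXNIP KO numbered 0 to 1 without single libraries, the 1 being Hspb6 without second pair replicate 1. With the first WT pair as control of TXNIP KO, no count differed by over 1.5 times. The direction of the folds did depend on the control. Mean folds of Hspb1, Bag3 and Hspb8 were 302, 197 and 59.4 in TXNIP KO, against 110, 53.9 and 14.7 in the first WT pair. Among the 5 members with a window, allowing 1 mismatch gave 2 with a 3-unit match (Hspb1 and Hspb6), against 0 with none. Bag3 could not be read past its match. With 1 mismatch 7.22% of all windows matched, and 59.7% of the 124 with a room temperature replicate 1 summit.

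The rank difference of Hspb8 between 40 min and room temperature was -209.0 to 69.5 places without single libraries, and it changed sign without room temperature replicate 1. That of Bag3 between TXNIP KO and the second WT pair was -6.5 to 2.5 places, and it changed sign without TXNIP KO replicate 1. The other 68 alternative rank differences kept their direction, but whether groups stood apart depended on the measure. Ranked by −log10 p, Bag3 differed by -20.5 places between the first 40 min WT pair and room temperature (exact permutation test, p = 0.667). Its groups then no longer stood apart. Nor did those of Hspb1 in that comparison or at 4 h against either earlier time. Hspb1, Hspb8 and Cryab still stood apart between TXNIP KO and the second WT pair. With the replicate number as a replicate block, the Bag3 difference at 40 min stayed at -37.0 places with a smallest possible p of 0.5 (exact sign changes in 2 pairs), and no call changed. The labels do not say that equal numbers mark the same animals. Short lists and unknown depth limit what can be said at 4 h: a gene without a peak there was not called, which does not show that HSF1 was absent.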
